A study of Danio rerio with 25 samples.

Results

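MiR-130, miR-301 and miR-454 are a family of vertebrate microRNAs, taken here as every hairpin of those 3 microRNA numbers in the deposited count table of zebrafish skin, whatever its letter or copy. That gave 9 of 346 hairpins under 8 names, and all 9 had enough reads to be tested: miR-130a, miR-130b, the 2 copies miR-130c-1 and miR-130c-2, miR-301a, miR-301b, miR-301c, miR-454a and miR-454b. The data are small-RNA libraries from total RNA of the skin of male zebrafish at 6, 12, 24, 36 and 42 months, with 5 libraries per age and 25 in all, in a study that compared skin across adult life. Fish of 6 and 24 months were labelled as strain AB JxTü with no transgene. The strain label added flk:mCherry at 12 months, pu.1:GFP at 36 months and wt1a:GFP at 42 months, which are reporter transgenes. A difference of strain cannot be told apart from one of age, except at 24 against 6 months, where the label was the same. Nothing in the labels says in words that each library is a separate fish, so p-values measure the spread between libraries, which may in part be technical. In bulk skin, fewer cells that hold a microRNA and less of it per cell cannot be told apart.

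A microRNA guides the Argonaute complex to messenger RNAs that pair with its seed, a short stretch near its 5′ end, and so lowers their stability and translation. The mature microRNAs of this family share their seed, so that they are predicted to bind largely the same messages. They are transcribed in clusters that hold more than one family member, and in mammals miR-301a lies in an intron of SKA2, a gene of the spindle and kinetochore apparatus. In mammalian cells the family has been tied to growth and matrix pathways through targets such as TGF-beta receptors, miR-130a has been studied in endothelial growth, and miR-301a in NF-kappaB signalling.

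The 9 hairpins lie in 3 groups of direct neighbours in the zebrafish RefSeq annotation (assembly GRCz12tu, used for names and neighbours), in which all 9 were found by name. The first cluster holds miR-130c-2, miR-301b, miR-454b and miR-130b. The second holds miR-130c-1 and miR-301c, and the third holds miR-454a, miR-301a and miR-130a, within the annotated span of ska2 and of mdh2. No other annotated gene lay between the members of a cluster. The 2 copies of miR-130c thus sit in different clusters, yet their counts stood at a ratio of 0.930 to 1.13 (copy 2 over copy 1, median 1.00 over 25 libraries). The labels and notes do not state how a read matching both copies was counted, so the counts of the copies cannot be assigned to a cluster, and below they are summed where a single level is given.

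Library totals ran between 683884 and 5206505 reads. The lowest was replicate 2 of 42 months, which also had the highest summed level of epidermal microRNAs (miR-203, miR-205, miR-200, miR-141 and miR-429, 208207 CPM, read counts scaled to library size, against at most 136842 in the other libraries). Replicate 5 of 42 months had the highest sum of neuronal microRNAs (miR-9 and miR-124, 1655 CPM, against at most 689.7 elsewhere). Calls at 42 months are given below with and without both libraries. All 9 hairpins of the epidermal list were detected, so that markers of the labelled tissue were present.

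The family supplied 304139 reads, or 0.386% of all reads counted. MiR-130c held 33.1% of the family's reads with its copies summed, miR-454b 29.7%, miR-130b 15.3% and miR-301a 11.4%. The other members were minor: miR-130a held 4.89%, miR-454a 3.73%, miR-301c 1.39% and miR-301b 0.555%. These are shares of reads per hairpin, which ligation and amplification bias can shift between microRNAs. The summed level of the family was 4335 ± 423 CPM at 6 months, 3873 ± 265 at 12, 3685 ± 344 at 24, 3722 ± 236 at 36 and 3093 ± 444 at 42 months (SD, n = 5 each). With TMM scaling the ranges at 42 and 6 months did not overlap. With library size alone they did, at up to 3822 CPM at 42 months and from 3465 CPM at 6 months.

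Summed by number, miR-454 and miR-301 were lower with age, and the slope of miR-130 did not pass; the slopes of the numbers were not tested against each other. Summed miR-454 stood at 1539 ± 267 CPM at 6 months, 1349 ± 113 at 12, 1227 ± 227 at 24, 1096 ± 145 at 36 and 894 ± 147 at 42 months. Its fitted slope was -0.24 ± 0.04 on the log2 scale per 12 months (SE, edgeR quasi-likelihood test, adjusted p = 2.88e-04). Summed miR-301 was at 615 ± 135, 521 ± 90.0, 439 ± 87.4, 480 ± 38.6 and 378 ± 94.3 CPM over the same ages, with a slope of -0.19 ± 0.06 (adjusted p = 0.0165). Summed miR-130 was at 2181 ± 153, 2003 ± 238, 2019 ± 177, 2146 ± 157 and 1821 ± 294 CPM, and its slope of -0.05 ± 0.03 did not pass (adjusted p = 0.268). Over all microRNA numbers tested, 15.3% were called lower in this trend. Without the 42 months group, 1 of the 3 numbers was called, which was miR-454.

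Hairpin by hairpin, 6 of 9 had a slope below 0 at an adjusted p under 0.05 and none above 0, where 13.2% of all 258 hairpins tested were called lower and 12.0% higher. The median slope was -0.16 over the 9 members and -0.0063 over all hairpins tested. Called lower were both miR-454 hairpins, all 3 miR-301 hairpins and miR-130b, while miR-130a and both copies of miR-130c were not called. The split of calls over all hairpins moved with the scaling, at 34 lower and 31 higher with TMM, against 44 and 20 with upper-quartile scaling and 46 and 25 with library size alone. With the copies of every name summed, 4 of 8 member names were lower (miR-301a, miR-301b, miR-301c and miR-454b), where 8.95% of all names tested were, and miR-130b and miR-454a missed the threshold (adjusted p = 0.152 and 0.0603). Neither of these has copies to sum, but the summed table was scaled and fitted anew. Their slopes were -0.10 and -0.14 there, against -0.14 and -0.17 in the hairpin table. MiR-454b and miR-301b were called under every other setting in which they were tested (13 for miR-454b and 12 for miR-301b, which a filter at a mean of 100 CPM removed) and with any 1 library left out. The other 4 calls were not. A transgene term in the model marked only whether a label named any transgene, so it does not separate the reporter labels. With it the count fell to 2. Adjusted p-values were 0.0917 for miR-130b, 0.0640 for miR-301a, 0.0723 for miR-301c and 0.0698 for miR-454a. Their slopes were then -0.14, -0.17, -0.25 and -0.20, against -0.14, -0.16, -0.24 and -0.17 without the term. Those of miR-301b and miR-454b were -0.37 and -0.22, against -0.39 and -0.23. Calls over all hairpins fell as well. Without the 6 months group, without the 42 months group, and without replicates 2 and 5 of 42 months, 2 members were called as well. Calls over all hairpins also fell without the 6 months group. The share of all hairpins called lower in these fits with fewer libraries is not given here. Asked whether any age differed, the test called 4 of 9 members (miR-454a, miR-454b, miR-301b and miR-301a), where 38.4% of all hairpins tested were called.

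**Figure D1:**
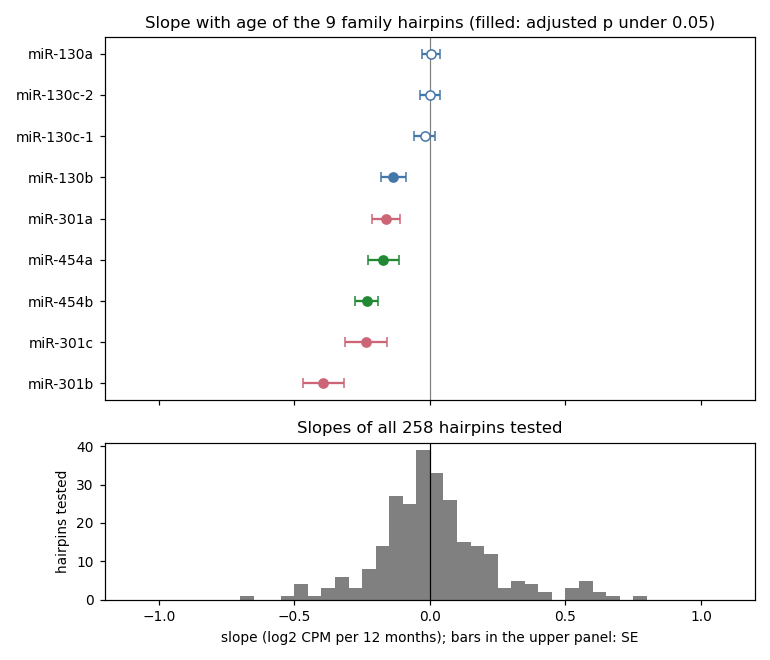
Slope of each member hairpin on the log2 scale per 12 months with its standard error, over 25 libraries. The miR-301 and miR-454 hairpins lie below 0, with miR-301b lowest at -0.39, while miR-130a and both copies of miR-130c lie close to 0.

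MiR-454b was the second most read member of the family, and its mean was lower at each later age. Its level was 1015.2, 1485.0, 1164.9, 1592.6 and 1507.8 CPM in the libraries of 6 months, and 1240.1, 1155.8, 1386.6, 1083.3 and 1197.7 CPM in those of 12 months. At 24 months it was 1124.7, 1481.8, 925.58, 1141.2 and 918.11 CPM. At 36 months it was 799.7, 992.89, 1119.2, 815.36 and 982.84 CPM, and at 42 months 788.33, 755.35, 940.11, 888.34 and 596.85 CPM. In these values all libraries of 42 months lay below all of 6 months, and the 36 months group overlapped the 6 months group through 1 library of each. With library size alone as the scaling, 42 months reached 970 CPM and 6 months began at 901 CPM, so that these ages overlapped. For how many hairpins of the whole table the ages did not overlap was not counted, here or for the members below. The means, 1353 ± 249, 1213 ± 113, 1118 ± 229, 942 ± 134 and 794 ± 132.9 CPM, differed in that order, but no pair of neighbouring ages passed the test. The slope was -0.23 ± 0.04 per 12 months (adjusted p = 1.67e-04).

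MiR-454a was read far less often and took a different course, in which the 36 months group stood out of order.
Its level was 165.49, 218.43, 161.15, 182.77 and 201.84 CPM at 6 months, and 148.6, 123.95, 117.83, 122.38 and 167.15 CPM at 12 months. At 24 months it was 114.44, 105.48, 128.42, 101.6 and 94.528 CPM. At 36 months it was 127.7, 157.19, 165.45, 159.99 and 158.35 CPM, and at 42 months 113.89, 75.035, 114.14, 112.95 and 85.264 CPM. Every library of 24 months and every library of 42 months lay below every library of 6 months, while the 36 months group, fish with the pu.1:GFP label, overlapped 6 months and lay above 42 months. The means were 185.9 ± 24.2, 136.0 ± 21.2, 108.9 ± 13.1, 153.7 ± 14.9 and 100.3 ± 18.7 CPM. Its level was higher at 36 than at 24 months (log2 difference 0.50, adjusted p = 0.0383) and lower at 42 than at 36 months (-0.61, adjusted p = 0.0156), where 2.33% of all hairpins tested were called higher and 1.16% lower in those comparisons. Neither call was stable: the first was lost under 3 other scalings, with no filter and in 14 of the 25 fits that left out 1 library, and the second without replicate 4 of 36 months and without replicates 2 and 5 of 42 months together.

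MiR-301b was the least read member and had the steepest slope. It stood at 21.9, 31.4, 30.3, 30.2 and 36.0 CPM at 6 months, and at 16.1, 22.2, 23.2, 27.2 and 28.1 CPM at 12 months. At 24 months it was 17.95, 20.8, 17.9, 20.4 and 16.0 CPM. At 36 months it was 12.4, 12.9, 11.6, 16.1 and 11.5 CPM, and at 42 months 10.2, 3.33, 16.1, 23.8 and 13.1 CPM. In these values all libraries of 24 and of 36 months lay below all of 6 months, and at 42 months 1 library, replicate 4, reached into the 6 months range. With library size alone, replicate 4 of 24 months (21.6 CPM) lay above replicate 1 of 6 months (19.4 CPM). The slope was -0.39 ± 0.07 per 12 months (adjusted p = 3.2e-04). These values rest on 2 to 180 reads per library. The value of 3.33 CPM came from 2 reads in replicate 2 of 42 months, with a 95% exact (Clopper-Pearson) interval of 0.404 to 12.0 CPM, and the 23.8 CPM of replicate 4 from 39 reads, with an interval of 16.9 to 32.6 CPM. Such intervals cover counting error only, since reads without molecular identifiers are not independent molecules.

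MiR-301a, the best read of the miR-301 hairpins, averaged 521 ± 119 CPM at 6 months, 439.7 ± 82.4 at 12, 372.5 ± 77.3 at 24, 418 ± 35.7 at 36 and 330.6 ± 68.3 at 42 months (SD, n = 5 each). Its libraries of 42 months held 332.76, 245.11, 381.65, 410.9 and 282.68 CPM, and those of 6 months 342.32, 575.37, 458.97, 601.94 and 626.34 CPM, so that the ages overlapped through replicate 1 of 6 months. Its slope was -0.16 ± 0.05 (adjusted p = 0.0257). MiR-301c averaged 63.96 ± 13.7, 57.5 ± 4.45, 47.7 ± 14.0, 48.9 ± 6.85 and 34.1 ± 20.8 CPM over the 5 ages, from 10 to 343 reads per library. Its 42 months libraries spread most, at 23.374, 16.674, 40.266, 67.77 and 22.3 CPM, with replicates 3 and 4 within the 6 months range. Its slope was -0.24 ± 0.08 (adjusted p = 0.0291). Replicate 4 of 42 months held the highest value of that age for all 3 miR-301 hairpins.

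MiR-130c, the most read member, had no slope with age that passed the test. Its copies summed to 1343.2, 1411, 1279.5, 1267 and 1308.9 CPM at 6 months, and to 1319.8, 1201.4, 1219.4, 1105.8 and 1103.1 CPM at 12 months. At 24 months the sums were 1107, 1377.8, 1265.8, 1384.6 and 1217.3 CPM. At 36 months they were 1508.9, 1388.2, 1492.3, 1279.9 and 1484.6 CPM, and at 42 months 893.3, 1357.3, 1154.8, 1342.6 and 891.99 CPM. The highest mean was at 36 months (1431 ± 96.7 CPM) and the lowest at 42 months (1128 ± 229 CPM), where replicates 1 and 5 lay below every other library. Slopes were -0.02 ± 0.04 for copy 1 and 0.0019 ± 0.04 for copy 2 (adjusted p = 0.765 and 0.975). At 42 against 36 months the copies differed by -0.35 and -0.33 and missed the threshold (edgeR, adjusted p = 0.0574 and 0.0746). The sign for copy 2 changed with the scaling, and that for copy 1 changed only where libraries or ages were left out.

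MiR-130a varied little, between 151 and 241 CPM in all 25 libraries. It averaged 203.5 ± 31.9 CPM at 6 months, 176.1 ± 18.5 at 12, 175.2 ± 14.7 at 24, 199.99 ± 15.0 at 36 and 190.3 ± 14.5 at 42 months, and no pair of ages was called. Its slope was 0.0046 ± 0.03 (adjusted p = 0.935), with a sign that also changed under other scalings. MiR-130b averaged 655 ± 86.7, 637 ± 135, 574 ± 112, 516 ± 74.2 and 502 ± 115 CPM, with its highest library at 12 months (867.14 CPM) and its lowest at 42 months (328.59 CPM). Its slope of -0.14 ± 0.05 passed the test (adjusted p = 0.0325), but no pair of ages did.

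**Figure D2:**
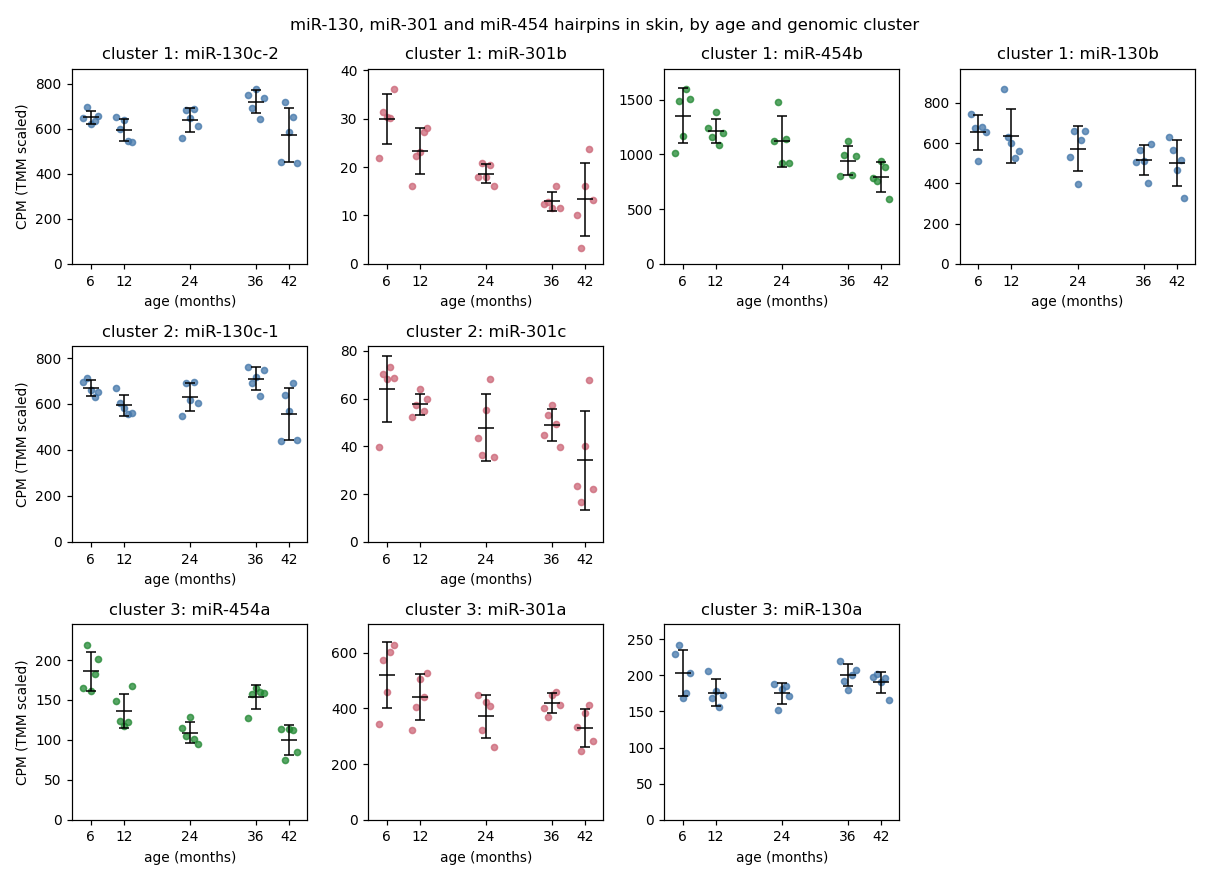
Level of each member hairpin in every library in CPM against age in months, arranged by the 3 genomic clusters, with the mean and SD of each age (n = 5 libraries). MiR-454b and miR-301b are lower at each later age up to 36 months. MiR-454a is high again at 36 months, and miR-130a and both copies of miR-130c had no slope with age that passed the test.

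The comparison of 24 with 6 months is the one in which the strain label did not change. MiR-454a was lower at 24 months by -0.77 ± 0.14 on the log2 scale (adjusted p = 7.47e-04), a call that held in all 10 other settings and with any 1 library left out. MiR-301a, from the same cluster, was also called, at -0.48 ± 0.18 (adjusted p = 0.0483), but it stayed called in 2 of 10 other settings and 3 of 25 fits with a library left out. The count of 2 of 9 compares with 16.3% of all hairpins tested that were called lower, and the median difference was -0.27 over the members and 0.05 over all hairpins. Over all hairpins, 42 were called lower and 23 higher at 24 months, against 36 and 33 with the size factors of DESeq2 and 25 and 26 with upper-quartile scaling. MiR-301b had a larger difference than miR-301a, -0.69 ± 0.26, but missed the threshold (adjusted p = 0.0574). Its groups did not overlap with TMM scaling but did with library size alone. It was called with DESeq2 (0.0122), limma-voom (0.0260), only the 2 ages fitted (0.0151) and without replicates 2 and 5 of 42 months (0.0297). MiR-454b, with the clearest trend over all ages, differed by -0.27 ± 0.15 (adjusted p = 0.203). For miR-301c the difference was -0.42 ± 0.27 (adjusted p = 0.283), and for miR-130a, miR-130b and both copies of miR-130c it lay between -0.22 and -0.03 (adjusted p of 0.173 to 0.873).

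At 42 against 6 months, 5 of 9 members were called lower, where 12.4% of all hairpins tested were. The log2 differences were -0.88 ± 0.14 for miR-454a (adjusted p = 7.04e-05), -0.77 ± 0.15 for miR-454b (8.37e-04), -1.12 ± 0.27 for miR-301b (0.00376), -0.65 ± 0.18 for miR-301a (0.00809) and -0.89 ± 0.28 for miR-301c (0.0200). They are all of the miR-301 and miR-454 hairpins. No miR-130 hairpin was called, with differences of -0.10 for miR-130a (adjusted p = 0.552), -0.38 for miR-130b (0.102), -0.27 for miR-130c-1 (0.0820) and -0.19 for miR-130c-2 (0.221). Summed by number, however, miR-130 was called lower too, at -0.29 ± 0.10 (adjusted p = 0.0346), beside -0.75 ± 0.21 for miR-301 (0.00876) and -0.83 ± 0.16 for miR-454 (5.92e-04). The 12.4% is for hairpins, and the share of all microRNA numbers called lower in this comparison is not given here. With library size alone as the scaling, the hairpin miR-130b was called (-0.41, adjusted p = 0.0471) and miR-301c was not (-0.86, adjusted p = 0.0532). Without replicates 2 and 5 of 42 months, 3 hairpins stayed called: miR-454a at -0.66 (adjusted p = 0.00131), miR-454b at -0.58 (0.0141) and miR-301b at -0.80 (0.0232). MiR-301a and miR-301c were then not called (-0.42 and -0.50, adjusted p = 0.144 and 0.237). The 12.4% is for all 25 libraries, and the share of all hairpins called in this smaller fit is not given here. Of the numbers, miR-454 was then called (-0.64, adjusted p = 0.0116), and miR-301 (-0.49, adjusted p = 0.100) and miR-130 (-0.22, adjusted p = 0.256) were not.

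At 36 against 6 months, 2 of 9 members were lower, where 14.3% of all hairpins tested were called lower. MiR-301b differed by -1.22 ± 0.27 (adjusted p = 0.00164) and miR-454b by -0.52 ± 0.15 (adjusted p = 0.0124, and 0.0528 without replicate 4 of 36 months). They lie in the same cluster, whose other hairpins were not called: miR-130b differed by -0.35 (adjusted p = 0.151) and miR-130c-2 by 0.14 (0.344). The counts of miR-130c-2 cannot be assigned to this cluster, so its value does not describe the cluster. The remaining members of the miR-301 and miR-454 numbers differed by -0.27 for miR-454a (adjusted p = 0.155), -0.32 for miR-301a (0.18) and -0.39 for miR-301c (0.288). At 12 against 6 months edgeR called 0 of 9 members, where it called 2.71% of all hairpins lower. MiR-454a was the single member with an unadjusted p under 0.05 (log2 difference -0.45, adjusted p = 0.0763), and DESeq2 and limma-voom each called 1 member. All 4 comparisons share the 6 months libraries and are not independent of each other.

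Among the 6 pairs of later ages, 4 member calls were made, and those of miR-454a are given above. MiR-454b was lower at 42 than at 12 months (-0.61, adjusted p = 0.0167, where 2.71% of hairpins were called lower), but not without replicates 2 and 5 of 42 months (-0.44, adjusted p = 0.0790). MiR-301b was lower at 36 than at 12 months (-0.86, adjusted p = 0.0393, where 4.26% were called lower), a call lost in 12 of 25 fits with a library left out. At 24 against 12 months and at 42 against 24 months no member was called by edgeR, with 1 member at an unadjusted p under 0.05 in each, and 2.33% of all hairpins were called lower in the second of these and none in the first.

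**Figure D3:**
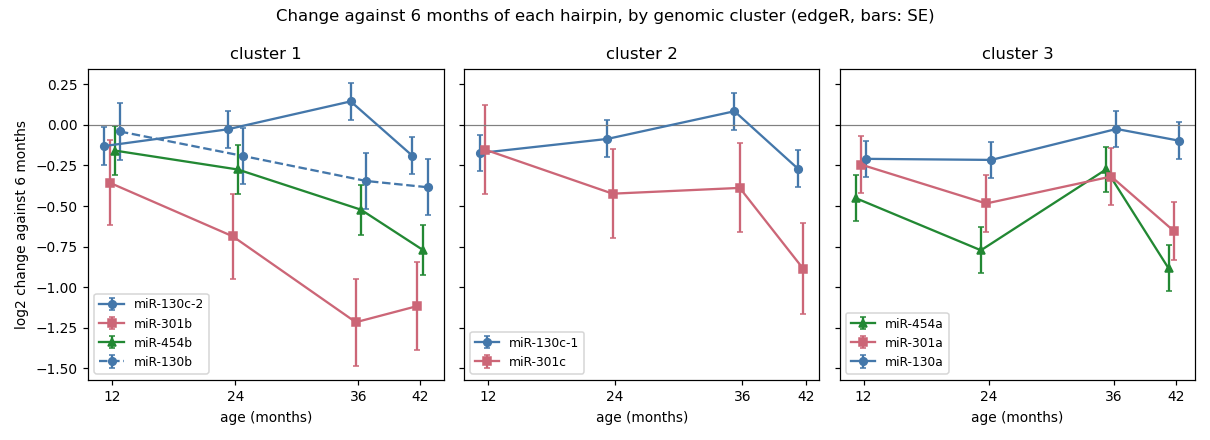
Log2 difference of each member hairpin from 6 months at 12, 24, 36 and 42 months, with its standard error, arranged by the 3 genomic clusters. In the third cluster miR-454a differs by -0.77 at 24, -0.27 at 36 and -0.88 at 42 months, and miR-130a stays within 0.22 of 0.

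Members of a cluster are direct neighbours, and whether they share a transcript was not tested. The ratio of the counts of 2 members within a library was followed with age, which needs no scaling between libraries. The slope of the log2 ratio was tested by permutation (two-sided, 100000 resamples) for all 28 pairs of member names, and 17 passed after adjustment over the 28 pairs, 18 before. The 28 pairs are made from 8 names and are not independent of each other. Ratios between names outside the family were not tested, so the count of 17 has no share over all names to stand beside. In the third cluster, miR-130a over miR-454a had a slope of 0.19 ± 0.05 per 12 months (adjusted p = 0.00352). Its log2 ratio was 0.47, 0.14, 0.07, -0.06 and 0.01 at 6 months, 0.47, 0.45, 0.59, 0.35 and 0.04 at 12 months, and 0.72, 0.52, 0.49, 0.86 and 0.86 at 24 months. It was 0.78, 0.29, 0.12, 0.32 and 0.39 at 36 months, and 0.79, 1.42, 0.74, 0.80 and 0.95 at 42 months. Every library of 24 months and of 42 months had a higher ratio than every library of 6 months, while the 36 months group overlapped it. The call held with any 1 library left out, but not without the 42 months group (slope 0.11, adjusted p = 0.167). MiR-130a over miR-301a, also in that cluster, had a slope of 0.17 (adjusted p = 0.0165, and 0.0503 without replicate 2 of 42 months). The ratio of miR-301a to miR-454a had a slope of 0.02 ± 0.05 (adjusted p = 0.669), so that no change in their proportion was detected.

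In the first cluster miR-301b over miR-454b had a slope of -0.20 ± 0.08 (adjusted p = 0.0289), which without replicate 2 of 42 months was -0.13 (adjusted p = 0.0968). It was called without replicates 2 and 5 together (-0.16, adjusted p = 0.0436) and without the whole 42 months group (-0.26, adjusted p = 0.00395). MiR-130b over miR-454b had a slope of 0.09 ± 0.05 and did not pass (adjusted p = 0.0884). Nor did its ratios to miR-301a (0.02, adjusted p = 0.819), miR-454a (0.04, 0.637) and miR-301c (0.14, 0.218). MiR-130b over miR-301b did pass (0.30, adjusted p = 0.0165). MiR-130c over miR-454b had a slope of 0.22 ± 0.04 (adjusted p = 8.4e-04), with 25 of 25 calls on leaving out a library and 0.26 (adjusted p = 0.00119) without the 42 months group, though copy 1 of miR-130c lies in another cluster. As shares of the family's reads, miR-130c held 30.7 ± 3.0%, 30.7 ± 1.3%, 34.5 ± 2.5%, 38.5 ± 1.8% and 36.4 ± 4.5% over the 5 ages, and miR-454b 31.0 ± 3.2%, 31.3 ± 1.6%, 30.1 ± 3.5%, 25.2 ± 2.3% and 25.6 ± 1.9%. At 6 months their shares were thus alike, and at 36 months the groups' ranges lay apart.

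Members with the same number but different letters were also compared, though whether such letters share reads was not tested. MiR-454a over miR-454b had a slope of 0.05 ± 0.06 (adjusted p = 0.451), but a straight line does not capture a course that falls and rises. Its log2 ratio was -3.81 to -2.85 at 24 months and -2.76 to -2.35 at 36 months, a difference that was not tested. At 24 against 6 months it differed by -0.49 (exact permutation p = 0.0317, adjusted p = 0.178). MiR-301a over miR-301b had a slope of 0.28 ± 0.07 (adjusted p = 0.00134), and miR-130a over miR-130b one of 0.15 ± 0.05 (adjusted p = 0.00989). For miR-130a over miR-130c no change was detected (0.03 ± 0.04, adjusted p = 0.549). Within the 24 and 6 months libraries alone, where the strain label was the same, 0 of 28 ratios passed after adjustment and 5 had an exact permutation p under 0.05. The smallest p that 5 against 5 allows is 0.00794. It was reached by miR-130a over miR-454a (log2 difference 0.56 ± 0.12), miR-130c over miR-301b (0.61 ± 0.13) and miR-130c over miR-454a (0.71 ± 0.13), each with an adjusted p of 0.0741. In those 3 ratios the ages did not overlap. A ratio at the smallest possible p thus did not pass here, so the count of 0 does not show that the ratios were unchanged.

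**Figure D4:**
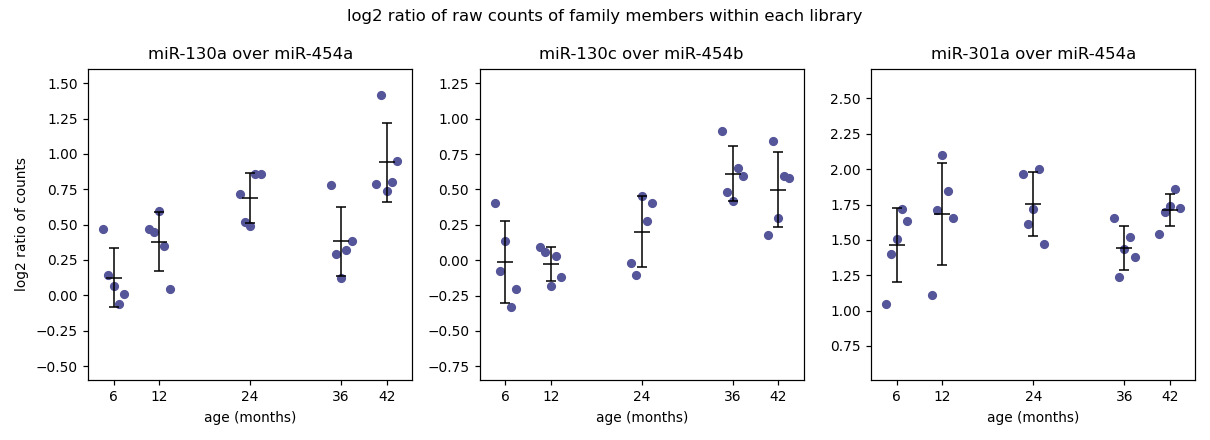
Log2 ratio of the read counts of pairs of members in each library against age in months. MiR-130a over miR-454a lies at 0.74 to 1.42 at 42 months and at -0.06 to 0.47 at 6 months, and miR-301a over miR-454a shows no slope.

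Across the 25 libraries the members' log2 levels were correlated to very different degrees, which is given as a description, since libraries of an age share strain and age. Pearson's r between pairs of member names ran between -0.17 and 0.81, with a median of 0.37. The pairs miR-301a with miR-301c (0.81), miR-301b with miR-301c (0.79) and miR-301a with miR-454a (0.76) were highest, and miR-130a with miR-301b was lowest. Pairs of the same cluster were thus not always the most alike. How reads were counted is not stated, and whether letters of a number share reads was not tested. Among all other names, those most like the mean of the members were miR-152 (r 0.82, Spearman's rho 0.66), miR-429a (0.76 and 0.77), miR-93 (0.75 and 0.67), miR-148 (0.74 and 0.77) and miR-20a (0.74 and 0.38). Taken singly, miR-301a and miR-301b were both most like miR-152 (0.82 and 0.80), miR-454a was most like miR-93 (0.82), miR-454b most like miR-200b (0.73), miR-130b most like miR-139 (0.81), miR-301c most like miR-737 (0.81), miR-130a most like miR-733 (0.64) and miR-130c most like miR-93 (0.54).

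MiR-19, miR-148 and miR-152 have seeds that overlap that of the family, and their 6 hairpins were followed as a related list. In the trend 2 of 6 were lower, where 13.2% of all hairpins tested were, and none higher, with a median slope of -0.08: miR-148 at -0.15 ± 0.05 (adjusted p = 0.0257) and miR-152 at -0.15 ± 0.05 (0.0291). Both are known regulators of DNA methyltransferase messages in mammals. MiR-19a, miR-19b and miR-19c had slopes of -0.03, 0.05 and 0.05, and miR-19d one of -0.13 (adjusted p = 0.113). At 42 against 6 months miR-148 and miR-152 were again the 2 of 6 that were lower, by -0.56 and -0.62 (adjusted p = 0.0156 and 0.0125), where 12.4% of all hairpins were called lower, and none of the 6 was called without replicates 2 and 5 of 42 months. The median log2 difference of the 6 was -0.33 with those libraries and -0.24 without. At 24 against 6 months, in fish of the same strain label, miR-19d was the 1 of 6 called (-0.63, adjusted p = 0.0114), a share close to the 16.3% of all hairpins called lower, and miR-148 was at -0.45 (0.0508).

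Lists of markers of the cell types that skin samples can hold were followed with age beside the family, and the lists did not move alike. Of the 9 hairpins of epidermal microRNAs, 5 were lower in the trend and none higher, where 13.2% of all hairpins tested were called lower and 12.0% higher. The mean of their summed level was 111721 CPM at 6 months (range 83639 to 122131), 100635 at 12 (71569 to 136842), 86359 at 24 (54760 to 127107), 89867 at 36 (68606 to 110326) and 106130 at 42 months (61342 to 208207). At 24 against 6 months 6 of these 9 were lower, where 16.3% of all hairpins tested were. At 42 against 6 months it was also 6 of 9, where 12.4% of all hairpins were called lower. Without replicates 2 and 5 of 42 months, 1 of 9 was lower in that comparison. The median log2 difference of the 9 was then -0.44, against -0.56 with all libraries. The share of all hairpins called in that smaller fit is not given here. Of the 8 skeletal muscle hairpins (miR-1, miR-133 and miR-206) 4 were lower in the trend and none higher, and of the 13 neuronal hairpins 2 were higher and none lower. The neuronal share was close to the 12.0% of all hairpins called higher in the trend. At 42 against 6 months 6 of the 13 neuronal hairpins were higher, with a median log2 difference of 1.26, where 11.6% of all hairpins were called higher. Without replicates 2 and 5 none of the 13 was, with a median of 0.12. Of the 8 muscle hairpins 2 were lower at 42 against 6 months, where 12.4% of all hairpins were, and none without those libraries. Their median was -0.43 with those libraries and -0.41 without. In the trend 1 of the 4 leukocyte hairpins (miR-142, miR-150 and miR-223) was higher, where 12.0% of all hairpins were. Of the 2 erythroid (miR-144 and miR-451) and 2 endothelial hairpins (miR-126) none was called. Mean summed levels over the 5 ages ran between 6048 and 11273 CPM for muscle, 172 and 481 for neurons, 2982 and 3859 for leukocytes, 1509 and 2549 for erythroid cells and 6126 and 8326 for endothelium. The neuronal sum ranged between 111 and 236 CPM at 6 months, 253 and 689.7 at 12, 171 and 221 at 24, 241 and 487 at 36, and 97.7 and 1655 at 42 months, so that replicate 5 of 42 months stood alone. The part of these cell types in the levels of the family was not tested.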

How the data were processed

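Raw counts of reads per microRNA hairpin were deposited for 25 libraries, which were made with a TruSeq small RNA kit, per the labels. Per the submitters' processing notes, the tools were BWA 0.7.12-r1039, SAMtools 1.3.1-9, Trimmomatic 0.36 and CASAVA 1.8.4, in no stated order. How reads were counted, against which hairpins and on which genome build, is not given in the sources, and reads of the 2 arms of a hairpin or of identical copies cannot be told apart. Groups were the labelled ages, and replicates were numbered in record order.

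Counts were tested in R 4.3.3 with edgeR 4.0.16: TMM scaling, filterByExpr by age (minimum count 10), 258 of 346 hairpins, quasi-likelihood F tests from all 25 libraries for any age difference, a linear trend and all 10 pairs of ages (later minus earlier). The Benjamini-Hochberg adjustment ran over every hairpin tested, with calls at an adjusted p under 0.05, and standard errors are the log2 difference divided by the root of F. Of these tests, only the edgeR linear trend was tried on simulated counts. CPM use TMM library sizes of the hairpin table, while counts summed by name or number were scaled and filtered anew for their tests. Ratios had 0.5 added to each count, and correlations 0.5 to each CPM. With 683884 to 5206505 reads per library, the rarest members had few reads. DESeq2 1.42.0, limma-voom (limma 3.58.1), other scalings and filters, summed copies, a yes-or-no transgene term and left-out libraries were alternatives. The members, lists, tests and the rule for the named microRNAs (every member, and for likeness the 5 names most correlated with the members' mean and the 1 most like each member) were chosen with earlier results of these data known. Sequences are not printed.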

Additional observations from a re-analysis of the deposited data

Results flagged for a closer look

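In 2 of 60 groups of 5 libraries checked, a single library stood far from the others of its age by Dixon's test, and chance flags about 1 group in 20. MiR-301c was at 39.7 CPM in replicate 1 of 6 months, where the other libraries of that age held 68.3 to 73.0 CPM. MiR-454a was at 128 CPM in replicate 1 of 36 months, where the others held 157 to 165 CPM.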

How the results depend on the processing

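No paired analysis was possible because the labels give no replicate numbers that ages share. Counts of called members moved as follows. In the trend, 6 became 2 with the transgene term, without the 42 months group, and, in alternatives added after seeing the data, without the 6 months group and without replicates 2 and 5 of 42 months (2 to 6 on leaving out 1 library). The 2 called numbers became 1 without the 42 months group, without the 6 months group and without replicates 2 and 5. At 24 against 6 months, 2 became 1 with the size factors of DESeq2, upper-quartile scaling, library size alone, no filter, a mean CPM of at least 100 and copies summed, and 3 with DESeq2 and limma-voom (1 to 3 on leaving out 1 library). At 36 against 6 months, 2 became 1 with a mean CPM of at least 100, which drops miR-301b and miR-301c, and 3 with only the 2 ages fitted, where miR-130b was added (1 to 2). At 42 against 6 months, 5 became 3 with that filter, 2 with only the 2 ages fitted and 3 without replicates 2 and 5 (4 to 6). At 12 against 6 months, 0 became 1 with DESeq2, limma-voom and without replicates 2 and 5 (0 to 1). Among the other 6 pairs, 4 became 2 with no filter, 7 with a mean CPM of at least 100 and 10 with DESeq2 (2 to 10). The 17 called ratios became 11 without the 42 months group (10 to 18 on leaving out 1 library, the lowest without replicate 2 of 42 months). In the 24 and 6 months libraries alone 0 passed, but by another test on fewer libraries. The smallest p that this exact permutation test allows, 0.00794, had an adjusted p of 0.0741. That count therefore does not show that the ratios were unchanged. Slopes close to 0 changed sign. That of miR-130a was -0.0358 with upper-quartile scaling, -0.0147 with library size, -0.0016 with no filter and -0.0020 per rank of age (-0.0054 to 0.0363 on leaving out 1 library). That of miR-130c-2 was -0.0350, -0.0187 and -0.0035 under the first 3 of these, -0.0080 with limma-voom and -0.0081 per rank (-0.0096 to 0.0324). That of miR-130c-1 was 0.0580 without the 42 months group, 0.0201 without replicates 2 and 5 and 0.0037 without the 6 months group (-0.0312 to 0.0100), and that of summed miR-130 was 0.0153 without the 42 months group. Over all hairpins, 65 trend calls became 39 with the transgene term and 24 without the 6 months group. Beyond these settings, the cause was not tested. Depth limits miR-301b and miR-301c most.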
